A study of Homo sapiens with 6 samples.

Results

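The miR-26 family comprises 5 of the 2656 mature miRNA rows in a small RNA sequencing table of KPL4 cells, chosen by name: miR-26a-5p, miR-26b-5p, miR-26a-1-3p, miR-26a-2-3p and miR-26b-3p. KPL4 is an established human breast adenocarcinoma line. A group of 3 libraries came from KPL4 cells with knockout of estrogen receptor β (ERβ) into which exogenous ERβ had been transfected, called ERβ libraries 1, 2 and 3 here. The other group of 3 libraries came from ERβ knockout (KO) cells, called KO libraries S1, S2 and 3. Both groups therefore carry the knockout, and no empty-vector control or unedited cell is among the samples. The sources used here do not say whether the groups descend from a common clone, nor from which promoter ERβ was expressed. ERβ messenger RNA is outside this assay and no check of the labels on it was made, and an effect of ERβ and any other difference between the cell populations cannot be told apart. Separate cultures are not stated for the replicates, and p-values may then reflect technical spread alone.

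A miRNA is cut from a hairpin in a longer transcript, and either arm of the hairpin (5p or 3p) can be loaded into an Argonaute protein, where bases 2 to 8, the seed, guide it to messenger RNAs. The family is made from 3 hairpins that lie inside genes for small phosphatases acting on the tail of RNA polymerase II, CTDSPL, CTDSP2 and CTDSP1. miR-26a and miR-26b are known as growth-restraining miRNAs whose targets include EZH2, a histone methyltransferase; their genes are known to be repressed by MYC, and estrogen lowers them in breast cancer cells that carry estrogen receptor α.

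The mature sequences show which members can act on the same targets and which can be told apart by sequencing. They are RefSeq sequences on GRCh38.p14, written 5′ to 3′ with the seed in capitals. The abundant 5p arms, followed by miR-1297 and miR-4465, the other human miRNAs considered here that have their seed, are
miR-26a-5p: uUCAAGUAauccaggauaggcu
miR-26b-5p: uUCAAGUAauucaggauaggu
miR-1297: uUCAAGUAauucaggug
miR-4465: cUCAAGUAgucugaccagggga
and the scarce 3p arms are
miR-26a-1-3p: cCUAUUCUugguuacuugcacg
miR-26a-2-3p: cCUAUUCUugauuacuuguuuc
miR-26b-3p: cCUGUUCUccauuacuuggcu

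The 5p arms share the seed UCAAGUA and differ within their first 21 positions, counted from the 5′ end of miR-26a-5p, by C11U and C21U; miR-26a-5p is 22 bases long and miR-26b-5p 21. miR-26a-5p is cut from both MIR26A1 and MIR26A2 with the same sequence, so its count cannot be assigned to a hairpin. The 3p arms of these hairpins can be told apart, since miR-26a-1-3p and miR-26a-2-3p differ by G11A, C19U, A20U, C21U and G22C, all outside their common seed CUAUUCU. The seed of miR-26b-3p is CUGUUCU, from A4G relative to miR-26a-1-3p. The 3 hairpins follow, with both mature arms in capitals, to show that each hairpin yields an arm from both sides of its loop.
MIR26A1: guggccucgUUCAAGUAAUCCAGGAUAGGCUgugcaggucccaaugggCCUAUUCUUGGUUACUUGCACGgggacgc
MIR26A2: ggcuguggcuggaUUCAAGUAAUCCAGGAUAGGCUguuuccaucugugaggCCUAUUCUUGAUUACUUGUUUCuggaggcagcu
MIR26B: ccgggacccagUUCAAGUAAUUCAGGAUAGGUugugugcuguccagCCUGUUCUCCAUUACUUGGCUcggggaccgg

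In GENCODE release 29 (GRCh38), MIR26A1 lies on the plus strand of chromosome 3 (37969404 to 37969480), in intron 5 of CTDSPL. MIR26A2 lies on the minus strand of chromosome 12 (57824609 to 57824692), in intron 5 of CTDSP2. MIR26B lies on the plus strand of chromosome 2 (218402646 to 218402722), in intron 4 of CTDSP1. Each hairpin is on the strand of its host and overlaps no exon of any annotated transcript of that host, which number 8, 8 and 15 for CTDSPL, CTDSP2 and CTDSP1. No other annotated miRNA hairpin lies within 10 kb of any of them. The messenger RNAs of the hosts are not measured by this assay.

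**Figure D1:**
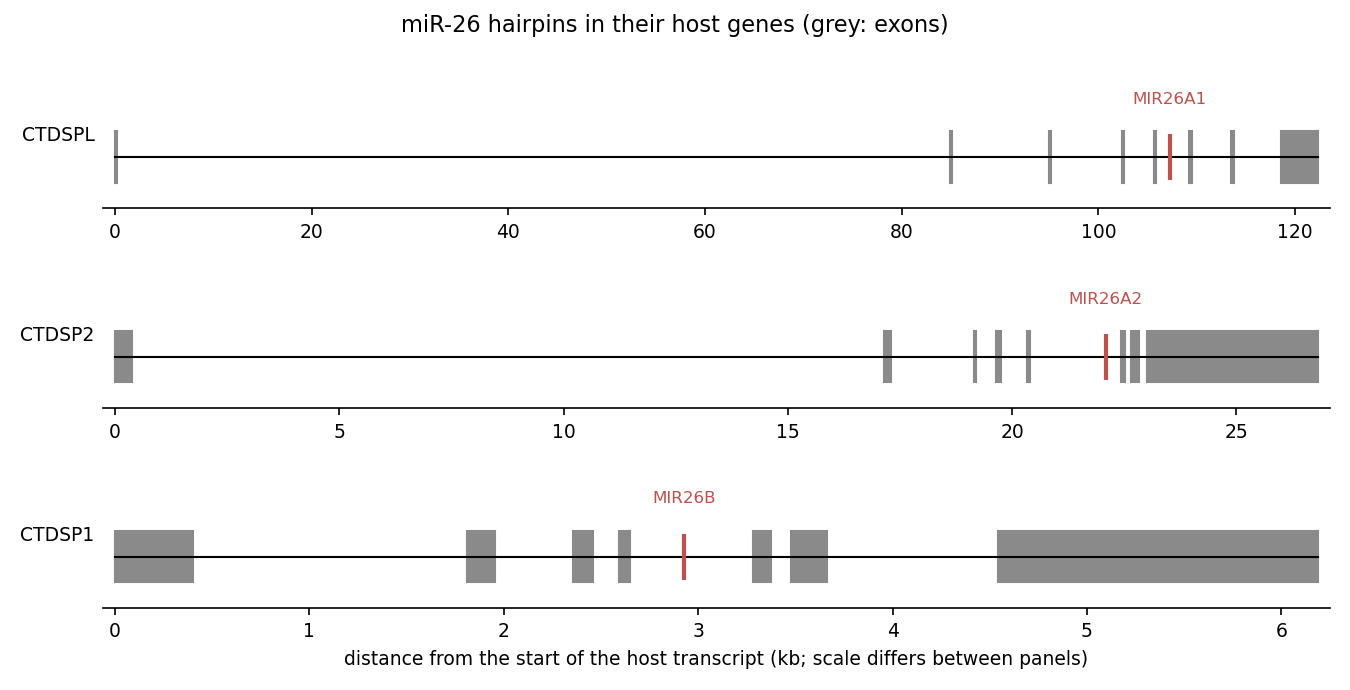
Position of the 3 miR-26 hairpins (red) in the principal coding transcript of each host gene, as distance in kb from the transcript's start; grey boxes are exons, with the shortest widened to stay visible, and the scale differs between panels. MIR26A1 and MIR26A2 both lie in intron 5 of 8-exon transcripts and MIR26B in intron 4 of a 7-exon transcript.

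The libraries held 10288415 to 14296902 counts. KO library S2 stood apart: over tested miRNAs the chi-square per degree of freedom against the other KO libraries was 308 and 334, while it was 12.2 to 21.2 for every other pair within a group, so results are also given without S2. Of 783 miRNAs abundant enough to test, 77 were higher and 104 lower with ERβ (edgeR's quasi-likelihood test, Benjamini-Hochberg adjusted p under 0.05), while library totals gave 146 and 61 and upper-quartile factors 123 and 70. These scalings move the median log2 fold change of all tested miRNAs by 0.15 and 0.11. Epithelial markers (the miR-200 family, miR-205-5p and miR-375-3p) were all detected, with 1 of 7 higher and 3 lower, summing to 85866 to 90214 CPM (counts per 1000000 counts) with ERβ and 85768 to 101425 CPM in KO cells. Of 16 markers of blood, endothelial, stromal, muscle, liver and nerve cells, miR-214-3p, miR-206 and miR-124-3p had at most 3 counts in every library. All 16 summed to 18176.5 to 20074.9 CPM with ERβ and 21669 to 23233 CPM in KO cells, so every ERβ library was lower. Most of this was endothelial miR-126, with miR-126-3p at 13689.5 ± 581 CPM with ERβ and 16796 ± 224 CPM in KO cells (SD, n = 3 each). Without the miR-126 arms, which were abundant in both groups, the remaining 14 markers summed to 43.3 to 52.0 CPM with ERβ and 46.0 to 55.7 CPM in KO cells. Of the 16, 8 were abundant enough to test, and 3 of these fell (miR-1-3p, miR-143-3p and miR-126-3p) and 0 rose. Of all tested miRNAs 13.3% fell. miR-1-3p rests on few counts, with 4 to 11 in the ERβ libraries. The part of these markers in the results was not tested.

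miR-26a-5p, the arm made by both miR-26a hairpins, fell with exogenous ERβ, and it was the single member of the 5 that passed the test; of all tested miRNAs 23.1% passed, and 13.3% passed in this direction. It stood at 11109, 10953 and 11082 CPM in ERβ libraries 1, 2 and 3, against 15102, 12967 and 15735 CPM in KO libraries S1, S2 and 3. The ERβ libraries lay close together and all below the KO libraries, of which S2 was the lowest. The means were 11048 ± 83.5 CPM with ERβ and 14601 ± 1450.2 CPM in KO cells (SD, n = 3 each). The log2 fold change, ERβ over KO here and throughout, was -0.40 ± 0.08 (SE), so that the level fell by 24.3% with ERβ (edgeR's quasi-likelihood test, Benjamini-Hochberg adjusted p = 0.00601). Without KO library S2 it was -0.48 ± 0.04 (adjusted p = 2.25e-09), in a fit that called 122 higher and 157 lower of 800 miRNAs. That fit sets 3 ERβ libraries against 2 KO libraries. S2 was left out for its spread, which by itself lowers the estimated variation. The smaller adjusted p is therefore not stronger evidence. CPM here are scaled by the trimmed mean of M-values (TMM), and in such bulk libraries fewer cells with a miRNA and less of it per cell cannot be told apart. The log2 fold change of miR-26a-5p was -0.24 with library totals and -0.29 with upper-quartile factors, both still called. Relative to the median of all tested miRNAs it was -0.39 with TMM, -0.38 with library totals and -0.39 with upper-quartile factors. A change of scaling shifts all miRNAs by nearly the same amount. The likeness of these 3 values therefore follows from the subtraction and cannot tell which scaling is right. miR-26a-5p kept its call in 13 of 14 alternatives and lost it in the fit with a replicate block (-0.41, adjusted p = 0.0593). In that fit ERβ library 2 is alone in its block and adds nothing to the contrast.

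miR-26b-5p, the arm with the same seed made from the CTDSP1 intron, did not pass. It stood at 12478, 12945 and 13648 CPM in ERβ libraries 1, 2 and 3, against 14664, 13602 and 15474 CPM in KO libraries S1, S2 and 3. The groups overlapped by a narrow margin, with ERβ library 3 above KO library S2. The means were 13024 ± 589 CPM with ERβ and 14580.0 ± 939 CPM in KO cells (SD, n = 3 each), a log2 fold change of -0.16 ± 0.07 (edgeR's quasi-likelihood test, Benjamini-Hochberg adjusted p = 0.145). This value hangs on S2: without it the log2 fold change was -0.21 ± 0.04 and passed (adjusted p = 5.91e-04, the lowest of a range of 5.91e-04 to 0.957 over 14 alternatives). Calls rose in general in that fit, to 122 higher and 157 lower of 800 miRNAs. miR-26b-5p was not called in any of the other 13 alternatives, and with library totals its log2 fold change was -0.01.

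**Figure D2:**
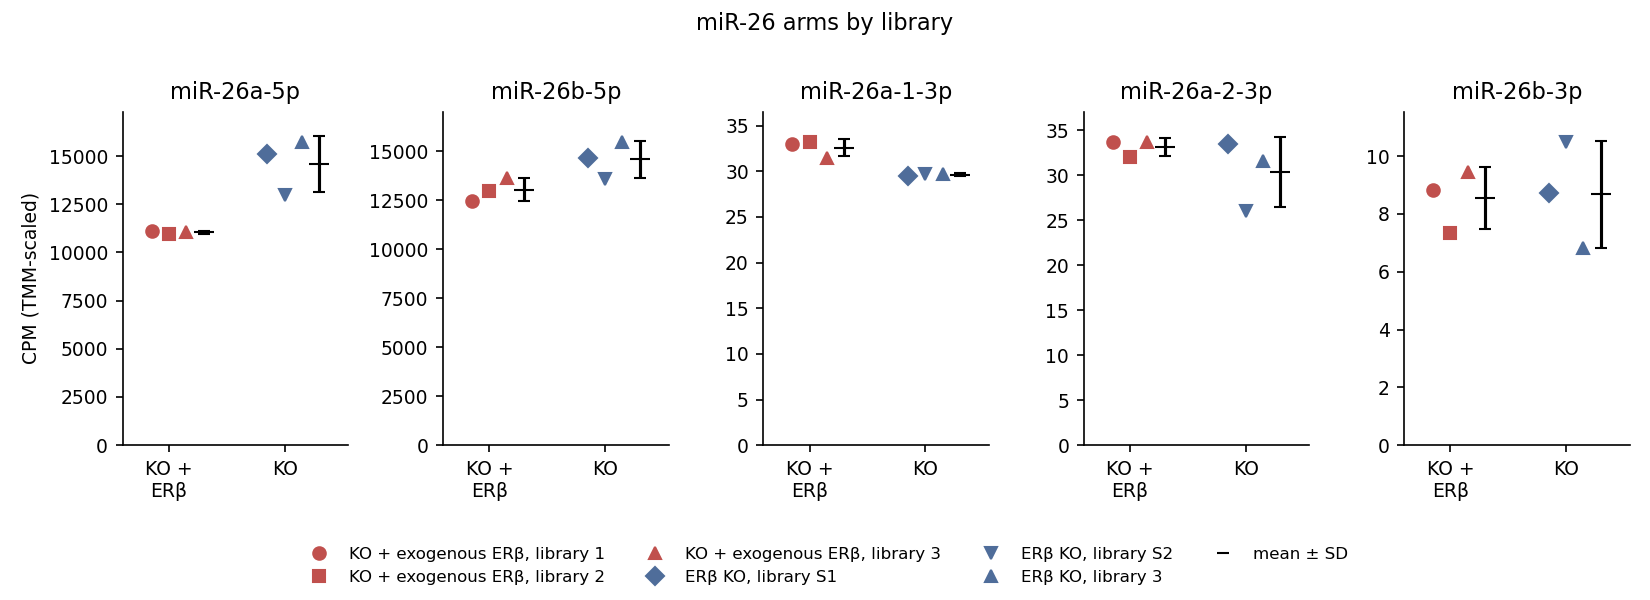
TMM-scaled CPM of each miR-26 arm in every library, with KO + exogenous ERβ to the left of KO in each panel; black bars are mean ± SD (n = 3). All ERβ libraries lie below all KO libraries for miR-26a-5p and above them for miR-26a-1-3p, and the groups overlap for the other 3 arms.

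The passenger arms were scarce, and none passed the test. miR-26a-1-3p, which comes from the CTDSPL intron alone, stood at 33.0, 33.2 and 31.5 CPM in ERβ libraries 1, 2 and 3, against 29.5, 29.8 and 29.7 CPM in KO libraries S1, S2 and 3. All ERβ libraries were above all KO libraries. With miR-26a-5p this makes 2 of the 5 members whose groups did not overlap, beside 39.8% of all tested miRNAs (18.9% higher and 20.9% lower). The log2 fold change was 0.14 ± 0.09 (edgeR's quasi-likelihood test, Benjamini-Hochberg adjusted p = 0.345) and 0.14 ± 0.09 without S2 (adjusted p = 0.222), and with library totals it was 0.29 and passed (adjusted p = 0.0440). These values rest on 366, 497 and 466 counts with ERβ and 324, 360 and 292 in KO libraries; the 95% Poisson intervals, which cover counting error only, reach down to 28.7 CPM in the lowest ERβ library and up to 33.3 CPM in a KO library, so that intervals of the groups overlap.

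miR-26a-2-3p, which comes from the CTDSP2 intron alone, stood at 33.7, 32.0 and 33.7 CPM in ERβ libraries 1, 2 and 3, against 33.5, 26.03 and 31.5 CPM in KO libraries S1, S2 and 3. Only S2 was well below the rest, and the groups overlapped. The log2 fold change was 0.13 ± 0.12 (edgeR's quasi-likelihood test, Benjamini-Hochberg adjusted p = 0.485) and 0.03 ± 0.08 without S2. It was 0.21 without KO library S1, 0.29 with library totals (adjusted p = 0.0702) and 0.24 with upper-quartile factors, and it passed in none of 14 alternatives. miR-26b-3p, the passenger of the CTDSP1 hairpin and the scarcest member, stood at 8.83, 7.35 and 9.47 CPM with ERβ, against 8.73, 10.5 and 6.82 CPM in KO libraries S1, S2 and 3. The KO libraries spread more widely than the groups differed. Its log2 fold change of -0.03 ± 0.18 (adjusted p = 0.912 in the same test) has a sign that changes with the scaling, being 0.12 with library totals and 0.08 with upper-quartile factors, and it was 0.13 without S2. It rests on 67 to 140 counts per library. The 95% Poisson intervals of KO library S2 (8.75 to 12.5 CPM) and KO library 3 (5.28 to 8.66 CPM) narrowly missed each other. These are the highest and lowest KO libraries, compared after their values were seen, and the intervals leave out error of scaling.

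**Figure D3:**
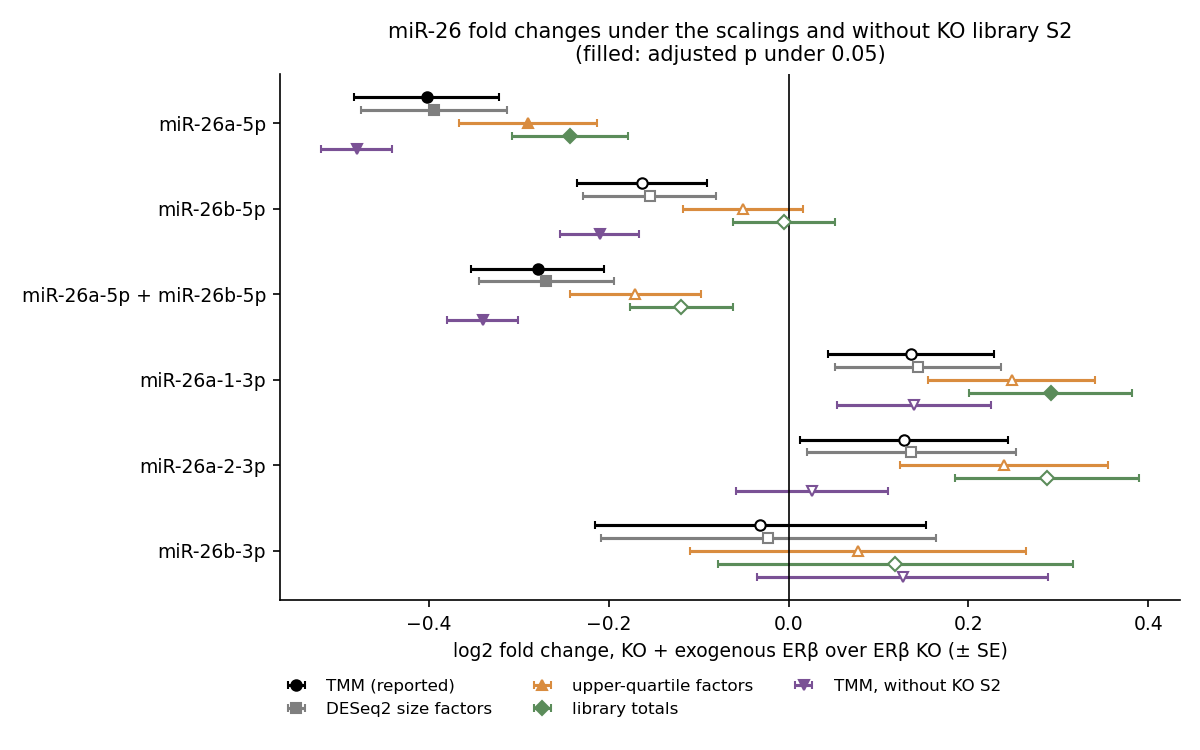
Log2 fold change (ERβ over KO) with its standard error for each miR-26 arm and for the sum of the 5p arms, under TMM and 3 other scalings with all libraries and under TMM without KO library S2; filled symbols have an adjusted p under 0.05. miR-26a-5p is called under all 5 settings, miR-26b-5p without S2 alone and miR-26a-1-3p with library totals alone.

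In order of level the 5p arms led. All members are 21 or 22 bases long, so their CPM were compared without a length correction; sequence-dependent ligation and amplification still enter such levels. In each library miR-26a-5p ranked between 14 and 23 and miR-26b-5p between 16 and 19 of all listed miRNAs. The 3p arms of miR-26a ranked between 254 and 283, and miR-26b-3p between 372 and 437. miR-26a-5p and miR-26b-5p did not differ beyond their spread in KO cells, at 14601 ± 1450.2 and 14580.0 ± 939 CPM, nor did miR-26a-1-3p and miR-26a-2-3p in either group. The 5 members held 2.55%, 2.51% and 2.59% of all counts in ERβ libraries 1, 2 and 3, against 2.77%, 2.64% and 2.90% in KO libraries S1, S2 and 3. Every ERβ library was below every KO library, with a difference of -0.217 percentage points (exact two-sided permutation test, p = 0.1, the smallest that 3 against 3 allows), and of -0.282 percentage points without S2. Over TMM-scaled library sizes the difference was -0.510 percentage points. Among tested miRNAs taken singly, 20.9% also had every ERβ library below every KO library in TMM-scaled CPM.

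Ratios between arms of the same library do not depend on scaling. There was 1 count of miR-26a 3p (both names summed) for every 167, 168 and 170.0 counts of miR-26a-5p in ERβ libraries 1, 2 and 3, against 240.1, 232 and 257 in KO libraries S1, S2 and 3. The ERβ libraries lay far below the KO libraries, and the spread within each group was small beside the gap: the ratio averaged 168 ± 1.74 with ERβ and 243 ± 12.5 in KO cells (SD, n = 3 each), a difference of -0.53 on the log2 scale (exact two-sided permutation test, p = 0.1, the smallest this design allows, and 0.3 adjusted over 6 ratios). Without S2 the difference was -0.56. For comparison, among 209 hairpin names with both arms tested, the groups did not overlap in the 5p over 3p ratio for 16.7% and all ERβ libraries were lower for 9.57%, the median difference was -0.02 and 4.78% had a more negative one than miR-26a. This background was chosen after the miR-26 values had been seen. Its ratios take 1 name per arm with a pseudocount of 0.5, and miR-26a itself is not among them. Pairs with few counts are included, such as miR-3129 at -1.26, so the share is a rough guide.

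The matching ratio at the CTDSP1 hairpin did not separate. miR-26b-5p per count of miR-26b-3p was 1413, 1760.4 and 1442 in ERβ libraries 1, 2 and 3, against 1680.3, 1296 and 2270.4 in KO libraries S1, S2 and 3. The KO values enclosed the ERβ values, and the log2 difference was -0.15 (exact two-sided permutation test, p = 0.7), turning to 0.05 without KO library 3. The balance between the miR-26a hairpins, miR-26a-1-3p over miR-26a-2-3p, was 0.979, 1.04 and 0.936 with ERβ, against 0.880, 1.14 and 0.942 in KO libraries S1, S2 and 3. The passenger arms of the CTDSPL and CTDSP2 hairpins were thus at near-equal counts in both groups, with a log2 difference of 0.00 (exact two-sided permutation test, p = 1). The log2 ratio of miR-26a-1-3p and of miR-26a-2-3p over miR-26b-3p differed by 0.14 each between the groups (exact two-sided permutation test, p = 0.5 and 0.9), and both turned negative without S2.

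The balance between the 5p arms separated the groups too. How often ratios between other related miRNAs do so was not worked out. Of the 5p over 3p ratios above, 16.7% separated the groups. miR-26b-5p per count of miR-26a-5p was 1.12, 1.18 and 1.23 in ERβ libraries 1, 2 and 3, against 0.971, 1.05 and 0.983 in KO libraries S1, S2 and 3. All ERβ libraries were above all KO libraries, so that miR-26a-5p made up 44.8 to 47.1% of the counts of both 5p arms with ERβ and 48.8 to 50.7% in KO cells. The log2 difference was 0.24 (exact two-sided permutation test, p = 0.1, the smallest this design allows, and 0.3 adjusted over 6 ratios) and 0.27 without S2.

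**Figure D4:**
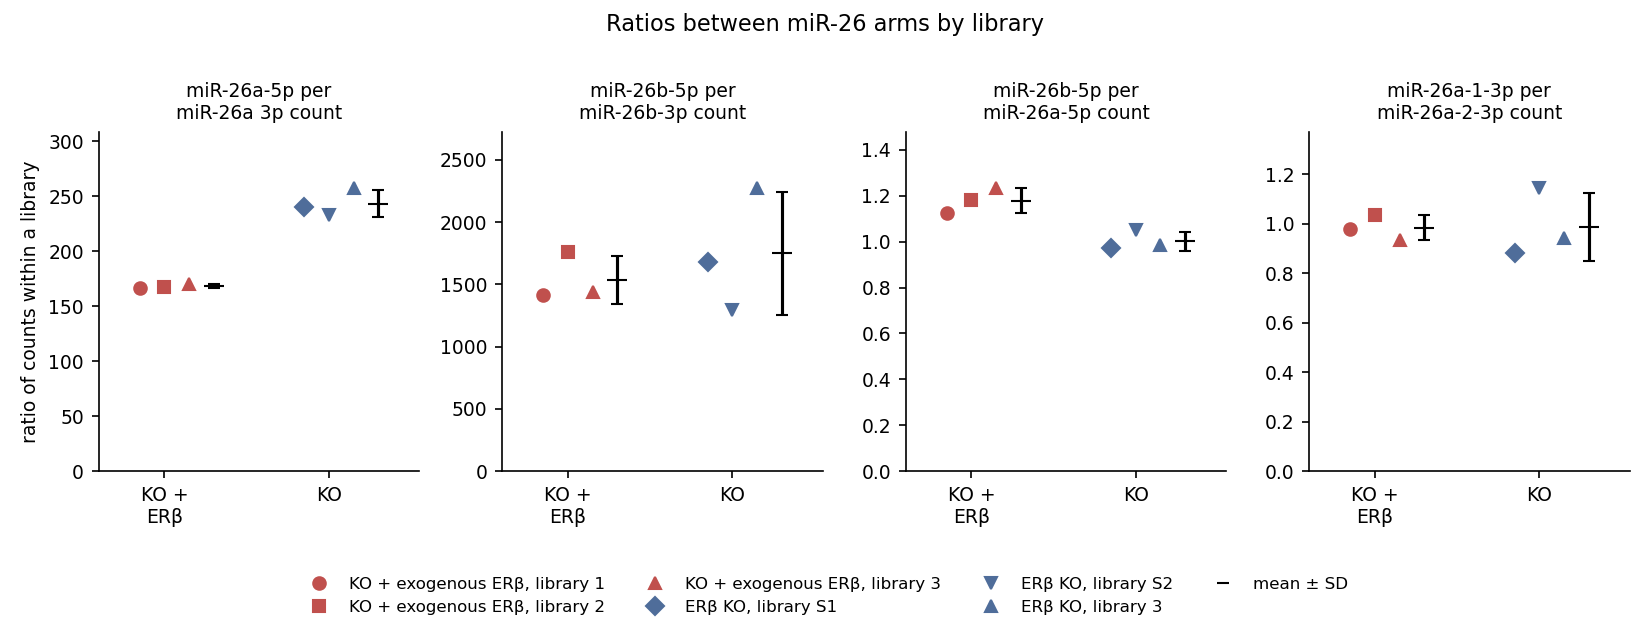
Ratios of counts between miR-26 arms within each library, with KO + exogenous ERβ to the left of KO; black bars are mean ± SD (n = 3). miR-26a-5p per miR-26a 3p count lies at 167 to 170.0 with ERβ and 232 to 257 in KO cells, and miR-26b-5p per miR-26a-5p count is higher in every ERβ library, while the groups overlap in the other ratios.

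The 5p names are near-identical, and their counts were examined for reads split between them. The fractional parts of the miR-26a-5p and miR-26b-5p counts summed to 1 within 0.01 in ERβ library 1 and KO libraries S2 and 3, and both were 0 in the other libraries. Whether reads were divided between these names was not tested. Reads assigned whole to the wrong name cannot be seen in this way, so the 5p arms were also tested as their sum, which such reads cannot move. The summed arms stood at 23578, 23889 and 24721 CPM in ERβ libraries 1, 2 and 3, against 29765, 26559 and 31256 CPM in KO libraries S1, S2 and 3. The groups did not overlap, which also held for 39.8% of all tested miRNAs taken singly. The summed arms averaged 24063 ± 591 CPM with ERβ and 29193 ± 2400.3 CPM in KO cells (SD, n = 3 each), a log2 fold change of -0.28 ± 0.07 (edgeR's quasi-likelihood test, Benjamini-Hochberg adjusted p = 0.0246). The sum kept its call in 5 of 14 alternatives. It was -0.34 without KO library S2 (adjusted p = 4.36e-07), where calls over all miRNAs rose too. The call was lost with any other library left out (adjusted p 0.0694 to 0.128), with library totals and with upper-quartile factors, among others. The seed relatives add nothing measurable: miR-1297 had 1 count in ERβ libraries 2 and 3 and 0 elsewhere, and miR-4465 had 1 count in ERβ library 1 and 1 in KO library 3, all under the 3 counts that a count of 0 allows.

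The miRNAs whose log2 CPM followed miR-26a-5p most closely over the 6 libraries, of 190 others averaging at least 100 CPM, were miR-30b-5p (Pearson r = 0.995), miR-221-3p (0.995), miR-30c-5p (0.987) and miR-452-5p (0.987). Their log2 fold changes were -0.33, -0.34, -0.19 and -0.18, of which those of miR-30b-5p and miR-221-3p passed. miR-26b-5p was followed by miR-221-5p (0.985), miR-148a-3p (0.972), let-7f-5p (0.970) and miR-12135 (0.965), with log2 fold changes of -0.29, -0.36, -0.27 and -0.41, of which those of let-7f-5p and miR-12135 passed. miR-26b-5p itself ranked 35 in likeness to miR-26a-5p (r = 0.911). These are descriptions over 6 points that share library, depth and the deviation of S2.

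miR-26 genes belong to a set of miRNAs known to be repressed by MYC, so a list of others from that set was read beside them. The list was chosen with earlier results of these data known. Of the 20 tested miRNAs of the set, miR-26 left out, 12 fell with ERβ and 0 rose. Of all tested miRNAs 13.3% fell and 9.83% rose. Nearly all of the set average at least 100 CPM, where calls are easier to reach. The shares called among miRNAs that abundant were not worked out, so this comparison is not like for like. The median log2 fold change of the set was -0.24, while it was -0.01 over all tested miRNAs and -0.07 over those averaging at least 100 CPM. The median of the set stayed negative with library totals (-0.087) and upper-quartile factors (-0.13). Several let-7 and miR-30 names are in the set, so its members are not independent. Relatives such as let-7c-5p, let-7e-5p and miR-30a-5p are not in it and were not called. The counts thus depend in part on which names were taken. miR-146a-5p, which damps NF-κB signalling, averaged 22.8 ± 1.91 CPM with ERβ and 64.5 ± 1.22 CPM in KO cells. miR-195-5p, which restrains cyclins, averaged 254 ± 5.61 CPM with ERβ and 509.7 ± 16.9 CPM in KO cells, and its neighbour miR-497-5p 310.5 ± 10.5 CPM with ERβ and 509.7 ± 7.56 CPM in KO cells. miR-23b-3p averaged 3431 ± 51.0 CPM with ERβ and 5116 ± 52.0 CPM in KO cells (SD, n = 3 each). These 4 fell more than miR-26a-5p on the log2 scale, at -1.50, -1.0, -0.72 and -0.58 (adjusted p = 3.34e-05, 3.74e-05, 1.31e-04 and 1.61e-04 by edgeR's quasi-likelihood test). They were named for the smallest adjusted p of the set, so large changes follow from that choice. Members that did not pass include miR-16-5p (-0.0043), miR-30e-5p (-0.0082) and miR-29a-3p (0.13). Without S2 the set had 1 higher and 14 lower, while calls over all miRNAs came to 122 higher and 157 lower of 800. It had 0 higher and 6 lower without ERβ library 1, 2 or 3, where 58 to 62 of all miRNAs were lower, so that the list's counts moved with the total. It had 0 and 7 without KO library S1, 3 and 6 with library totals, and 1 and 6 with upper-quartile factors. MYC is not measured here.

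**Figure D5:**
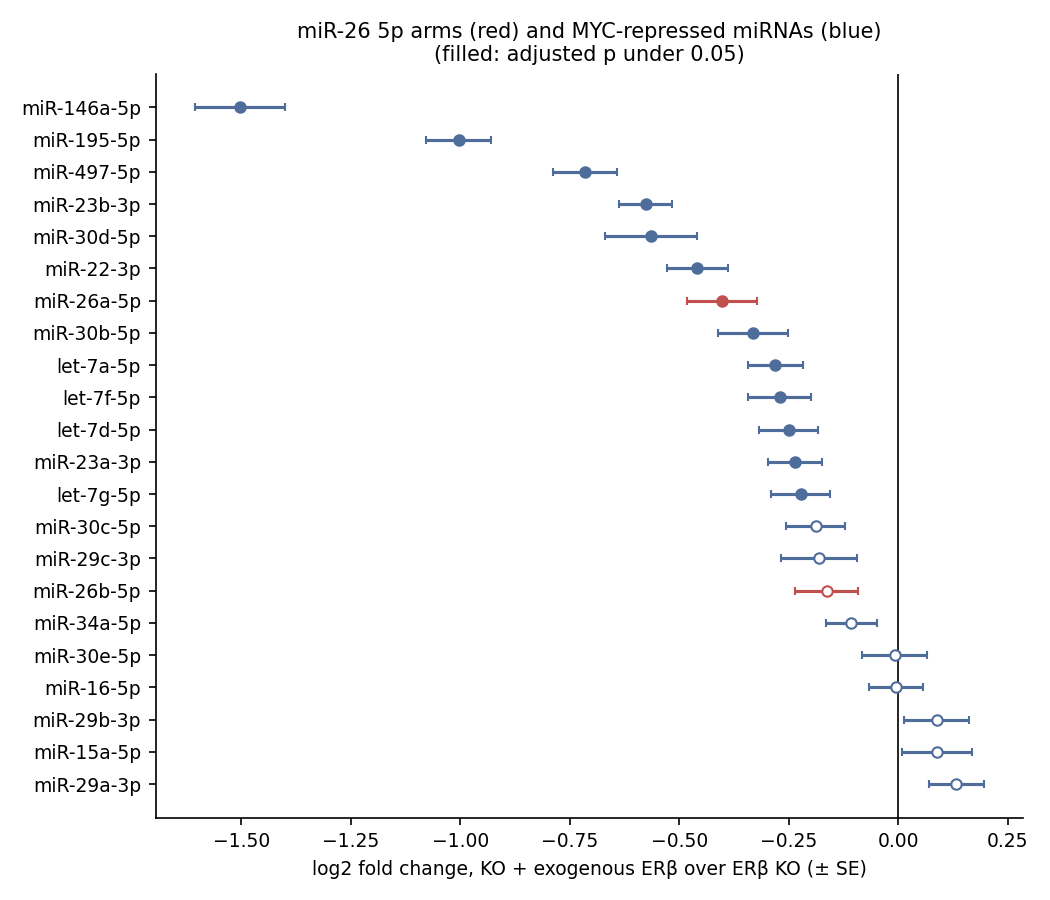
Log2 fold change (ERβ over KO) with its standard error for miR-26a-5p and miR-26b-5p (red) and 20 other miRNAs of the MYC-repressed set (blue); filled symbols have an adjusted p under 0.05. miR-26a-5p lies among the 12 blue miRNAs that passed, between miR-22-3p at -0.46 and miR-30b-5p at -0.33.

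Other miRNAs known to target EZH2, in a list also chosen with earlier results known, were read beside miR-26. Of 9 tested, 1 was higher and 2 were lower, while 9.83% of all tested miRNAs were higher and 13.3% lower. The list had a median log2 fold change of -0.07 that turned positive with library totals (0.084) and upper-quartile factors (0.043), where 2 were higher and 1 was lower. miR-217-5p, a pancreas-enriched miRNA, averaged 27.5 ± 0.297 CPM with ERβ and 12.1 ± 2.24 CPM in KO cells (log2 fold change 1.18). miR-30d-5p averaged 7883 ± 273 CPM with ERβ and 11666 ± 1842 CPM in KO cells (-0.57), and let-7a-5p, of the growth-restraining let-7 family, 41513 ± 364 CPM with ERβ and 50433 ± 2509 CPM in KO cells (-0.28; SD, n = 3 each). let-7b-5p was at -0.34 and did not pass (edgeR's quasi-likelihood test, adjusted p = 0.0505). Without S2 the set had 2 higher and 4 lower, in a fit that called 122 higher and 157 lower of 800 miRNAs. miR-30d-5p and let-7a-5p also belong to the MYC-repressed set. The near-identical let-7 names can carry part of each other's reads, and EZH2 itself is not measured by this assay.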

How the data were processed

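Small RNA of 6 KPL4 samples, 3 per group, was made into libraries with a QIAseq miRNA kit, per the labels' protocols; FastQC, Trim Galore and GRCh38 are named in the submitters' processing notes. No aligner, counter or miRNA release, nor any use of molecular identifiers, is named in the sources used here. The authors deposited a table of expected counts for mature miRNAs; 6.33 to 7.27% of its rows in a library are not whole numbers. Columns were assigned by name; 2 KO columns both carry the number 1 and are known by group only (S1, S2).

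Counts were rounded and fitted in R 4.3.3 with edgeR 4.0.16: filterByExpr (minimum count 10, total 15), TMM scaling, a robust quasi-likelihood test on all 6 libraries without covariates, Benjamini-Hochberg over 783 miRNAs at 0.05. Unrounded counts gave the ratios. A count of 3, the limit for a count of 0, is 0.21 to 0.292 CPM. Alternatives were other scalings, filters, DESeq2 1.42.0, limma-voom 3.58.1, a replicate block and each library left out. Likeness used log2 CPM (prior count 2). The members and lists were chosen with earlier results of these data known. Named miRNAs are the members, seed relatives, the 4 smallest adjusted p per list and the 4 closest by r; others in a caption or in lists of values were chosen after their values were seen. The test was tried on simulated data. Figures used matplotlib 3.10.9.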

Additional observations from a re-analysis of the deposited data

How the results depend on the processing

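Of 14 alternatives, miR-26a-5p kept its call in 13 and lost it with the replicate block (log2 fold change -0.41, adjusted p = 0.0593; adjusted p 2.25e-09 to 0.0593 over all alternatives). That block used the numbers in the column names, of which the groups share 1 and 3, with number 1 on 2 KO columns. ERβ library 2 is thus alone in its block and adds nothing to the contrast between the groups. Same-numbered libraries had correlations of their deviations of -0.0957 (ERβ 1 with S1), 0.134 (ERβ 1 with S2) and 0.123 (ERβ 3 with KO 3). Between differently numbered libraries they ranged from -0.103 to 0.0833. Since it is not known which KO column is which replicate, whether the numbers pair the samples is undecided. With the replicate block the calls over all miRNAs came to 88, the 5p sum to -0.29 (not called), miR-26b-3p to 0.13 and the MYC-repressed calls to 6. The sum also lost its call with upper-quartile factors (-0.17), library totals (-0.12) and no filter (-0.23). miR-26a-1-3p was called with library totals (0.29). miR-26b-3p turned positive with upper-quartile factors (0.078), library totals (0.12) and no filter (0.017), and was not tested at 10 CPM in 3 libraries. MYC-repressed calls were 7 with upper-quartile factors.

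With each library left out, calls over all miRNAs ranged from 111 to 279, MYC-repressed calls from 6 to 15 and EZH2-targeting calls from 2 to 6. Log2 fold changes ranged from -0.21 to -0.10 for miR-26b-5p, from -0.34 to -0.22 for the sum and from -0.17 to 0.13 for miR-26b-3p. Ratio differences ranged from -0.078 to 0.11 for miR-26a-1-3p over miR-26a-2-3p, -0.35 to 0.053 for miR-26b-5p over miR-26b-3p, -0.0021 to 0.31 for miR-26a-1-3p over miR-26b-3p and -0.11 to 0.34 for miR-26a-2-3p over miR-26b-3p; the cause was not tested. miR-26b-5p over miR-26a-5p and miR-26a-5p over its 3p arms kept their direction in all 8 alternatives, and the members' share did in all 9. The 3p arms have the fewest counts, miR-26b-3p the fewest of all, and thus the widest counting intervals relative to their level.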
